A study of Homo sapiens with 10 samples.

Results

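Elafin (PI3), secretory leukocyte protease inhibitor (SLPI), WFDC2, beta-defensin 1 (DEFB1), S100A8, S100A9 and the serum amyloid A genes SAA1 and SAA2 encode secreted antiprotease and antimicrobial proteins of epithelia, and their expression was compared here between irradiated and mock-irradiated kidney tubular cells. These 8 genes were found by matching the Ensembl identifiers of the 61587 rows of the count table to their symbols, and PI3 was chosen by the size of its rise after irradiation, that is by its levels in these same samples. The changes of PI3 are therefore given as a description, with no test. The other genes were chosen by symbol as proteins of the same kind, with earlier results of these data known. All 8 genes had a row in the table. Of these, 5 had at least 200 counts over the 10 samples, as had 19006 genes in all, and entered the main test. DEFB1, S100A9 and S100A8 had 124, 143 and 4 counts in total and did not.

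RPTEC/TERT1 is a human line derived from the renal proximal tubule and immortalised with telomerase, and both groups consisted of these cells, with no difference in genotype given. The irradiated group comprised 5 samples that received 10 Gy of gamma radiation from a caesium-137 source, a treatment that the study used to induce senescence. The control group comprised 5 samples carried to the irradiator but not exposed, and RNA was taken from both groups on day 7. Control and irradiated samples carried the replicate numbers 1 to 5 and were compared within a number. The cell line labels run from RPTEC/TERT1 up by 1 for each sample. All samples were taken here, from the study's methods, as RPTEC/TERT1 cells grown as a monolayer, without leukocytes, stroma or urine flow. Nothing says whether the replicates were independent cultures. The p-values of the main fit therefore measure the spread of the differences within replicate numbers of these 10 samples, which may be technical.

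PI3, SLPI and WFDC2 belong to the whey acidic protein (WAP) family, whose members share a compact domain held together by disulfide bonds. Elafin and SLPI inhibit neutrophil elastase, SLPI also inhibits cathepsin G, and elafin carries a tail that transglutaminases can couple to matrix and cell proteins. Beta-defensin 1 is a constitutive antimicrobial peptide of the distal nephron, S100A8 and S100A9 form calprotectin, which withholds zinc and manganese from microbes and signals through TLR4, and serum amyloid A is an acute phase apolipoprotein induced by IL-1, IL-6 and NF-κB.

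Total counts on genes ranged from 66269311 to 131555873 per sample. Levels are CPM, gene counts relative to the total of the sample after scaling by the trimmed mean of M-values (TMM, factors of 0.915 to 1.06). Kidney epithelial markers were abundant in both groups, with PAX8 at 533 ± 70.3 CPM (SD, n = 5) in control and 594 ± 17.7 CPM in irradiated cells. Of 10 proximal tubular markers fixed for this check, LRP2 (megalin), HNF4A, SLC34A1 and SLC22A6 had under 200 counts in all, while ANPEP was at 248 ± 76.1 CPM in control cells. The thick ascending limb transporter SLC12A1 was at 178 ± 125 CPM in control and 60.9 ± 62.4 CPM in irradiated cells, so the labelled proximal identity was carried by part of its markers only. In bulk samples, fewer cells of a type and less RNA per cell cannot be told apart.

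Elafin was nearly silent in control cells and well expressed after irradiation. PI3 (ENSG00000124102.5) lies on chromosome 20 at 45174902 to 45176544 of GRCh38, plus strand, and has 3 exons. In control replicates 1 to 5 its level was 0.281, 1.395, 0.618, 0.891 and 0.487 CPM. In irradiated replicates 1 to 5 it was 21.4, 13.6, 35.6, 22.1 and 16.2 CPM. The lowest irradiated sample thus lay far above the highest control sample. Groups were apart in this direction for 14.6% of all tested genes. PI3 was picked for its rise, so this gap and its rank below are descriptions only. Within replicate numbers the rise ran from 9.74-fold in replicate 2, which had the highest control and the lowest irradiated level, to 75.9-fold in replicate 1. The fitted log2 fold change was 4.88 with a standard error of 0.40, a 29.4-fold rise, which ranked 6 of 19006 tested genes from the largest rise. It was 4.20 without replicates 1 and 3 and 5.37 without replicate 2.

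SLPI (ENSG00000124107.5; chromosome 20, 45252239 to 45254564, minus strand, 4 exons), the broader antiprotease, was expressed in every control sample and rose, by a smaller fitted factor than PI3. Control replicates 1 to 5 held 19.6, 17.9, 45.1, 15.4 and 15.4 CPM. Irradiated replicates 1 to 5 held 38.7, 38.7, 68.9, 36.1 and 29.5 CPM. Replicate 3 was the highest in both groups, and its control sample exceeded 4 of the 5 irradiated samples, so the groups overlapped although the irradiated sample was higher in all 5 pairs. The pairs differed by 1.52-fold to 2.34-fold. The fitted log2 fold change was 0.97 with a standard error of 0.09 (edgeR adjusted p = 0.000118, replicate number as a block). Without the block the log2 fold change was 0.90 with an edgeR adjusted p of 0.0441.

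WFDC2 (HE4; ENSG00000101443.18; chromosome 20, 45469753 to 45481532, plus strand), a WAP protein secreted by many epithelia and used as a tumour marker, moved in the opposite direction. Control replicates 1 to 5 held 123, 134, 172, 74.6 and 93.8 CPM. Irradiated replicates 1 to 5 held 25.1, 87.6, 28.7, 27.6 and 31.1 CPM. WFDC2 was lower in irradiated cells in all 5 pairs, but the groups overlapped because irradiated replicate 2 lay above the lowest control sample. That pair differed by 1.53-fold and the other pairs by 2.71-fold to 5.99-fold. The fitted log2 fold change was -1.71 with a standard error of 0.26, a 3.27-fold fall (edgeR adjusted p = 0.00152). The log2 fold change was -1.97 without replicate 2, -1.55 without replicate 1, -1.48 without replicate 3 and -1.23 without replicates 1 and 3 together, and ran from -2.09 to -1.23 over all alternatives.

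The RefSeq promoter table (GRCh38.p14) matched 3 of the 8 genes by symbol, WFDC2, S100A9 and S100A8. The 250 bases upstream of the WFDC2 start site are shown because WFDC2 was the WAP gene that fell. They were searched on both strands for the AP-1 motif TGANTCA, the C/EBP motif TTGCNNAA, the NF-κB consensus and the TATA box TATAAA, none of which was found in these letters. 
WFDC2 upstream, plus strand, chr20:45469503-45469752: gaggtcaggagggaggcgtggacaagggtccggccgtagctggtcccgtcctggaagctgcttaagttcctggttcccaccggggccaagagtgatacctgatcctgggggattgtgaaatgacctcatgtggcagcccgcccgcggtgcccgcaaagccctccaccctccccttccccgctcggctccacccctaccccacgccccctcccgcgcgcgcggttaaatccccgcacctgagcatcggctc
Over 35116 upstream windows of the same length, 6.57% held the AP-1 motif, 9.05% the C/EBP motif, 9.96% the NF-κB consensus and 10.7% the TATA box.

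Of the 4 tested genes other than PI3, 3 were higher and 1 was lower in irradiated cells at an adjusted p under 0.05, where 46.6% of all tested genes were called, 23.9% as higher and 22.7% as lower (edgeR). SAA1 and SAA2 were also over 2-fold higher, as were 5.26% of tested genes, and WFDC2 was over 2-fold lower, as were 4.06%. Scaling by library size alone moved the split of called genes from 4550 higher and 4307 lower to 3609 higher and 5894 lower, without changing a direction among these 4 genes.

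**Figure D1:**
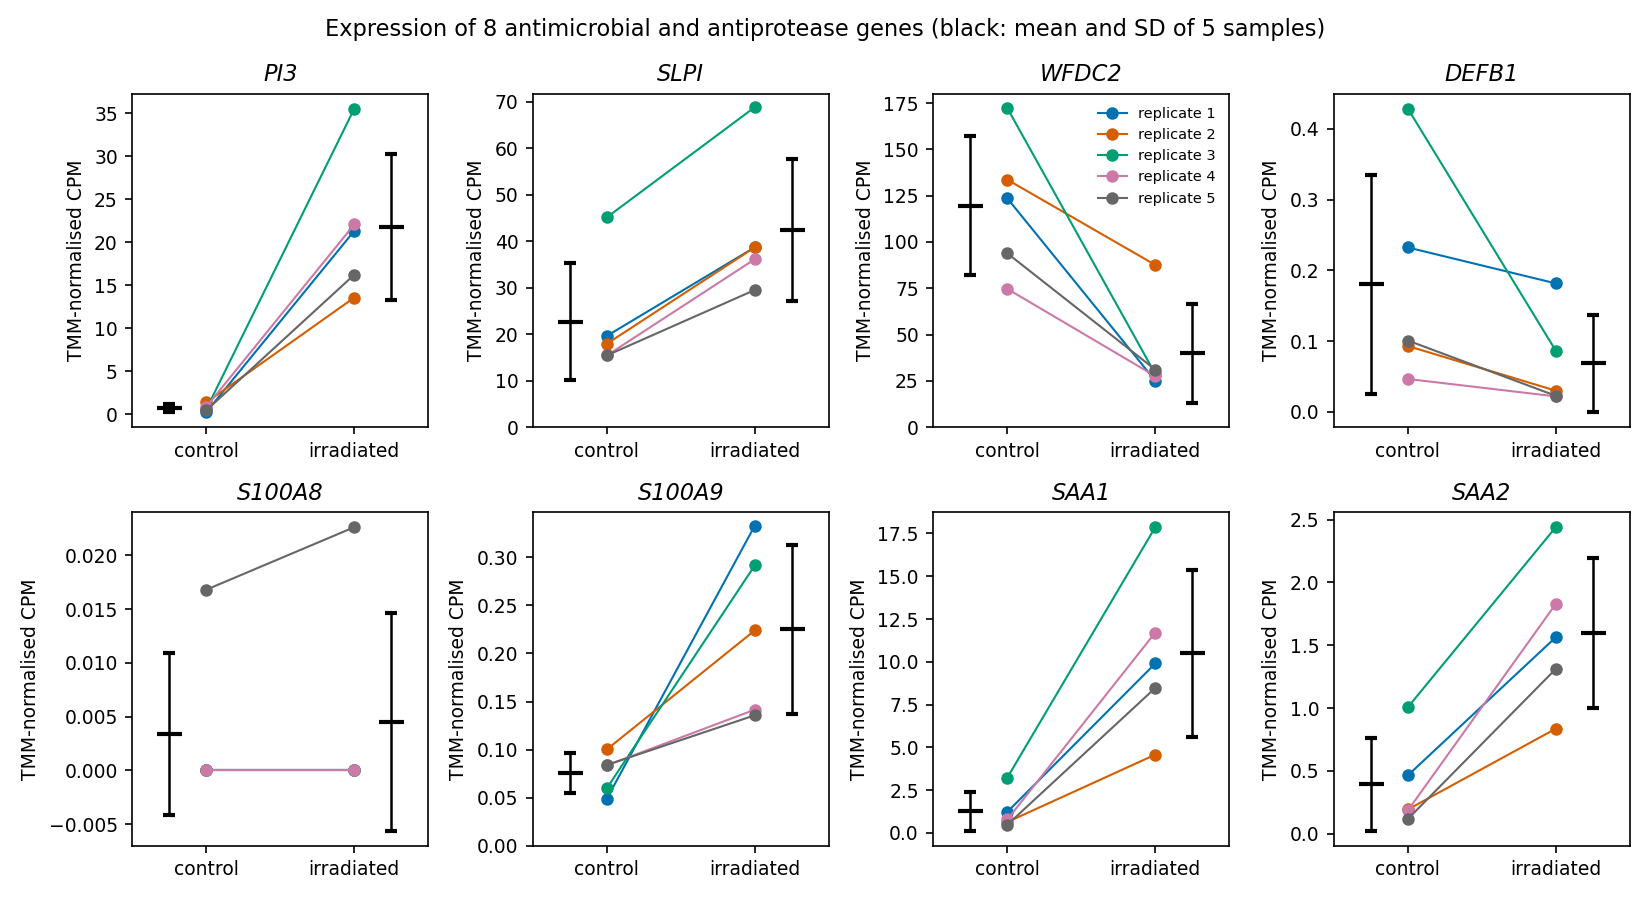
Level of each of the 8 genes (CPM, one axis scale per panel) in the 5 control and 5 irradiated samples, each point 1 sample, with lines joining samples of the same replicate number and the mean and SD of each group in black beside them. PI3 rose from 0.281 to 1.395 CPM in control cells to 13.6 to 35.6 CPM in irradiated cells, and WFDC2 fell in every pair.

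Levels of different genes were compared per kilobase of merged exon length. In control cells WFDC2 led with 89.6 ± 28.2 CPM per kb (SD, n = 5), followed by SLPI with 38.1 ± 21.2 and PI3 with 1.33 ± 0.781 CPM per kb. In irradiated cells SLPI had the highest mean, 71.1 ± 25.6 CPM per kb, and PI3 with 39.5 ± 15.4 and WFDC2 with 29.96 ± 19.99 CPM per kb lay within their spread of each other. In irradiated replicate 2 WFDC2, at 65.6 CPM per kb, was at the level of SLPI, at 64.9. The place of WFDC2 among the 3 genes in irradiated cells depends on the length used, since its mean was 70.6 ± 47.1 CPM per kb, close to that of SLPI, when its canonical transcript was used in place of its merged exons, and it was then above SLPI in replicates 2 and 5.

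The summed level of the 3 WAP genes overlapped between the groups, from 83.4 to 205.9 CPM per kb in control and 102.3 to 201.6 CPM per kb in irradiated samples, while its makeup differed. PI3 made up 0.405% to 1.94% of the sum in control and 15.9% to 33.1% in irradiated samples. SLPI made up 22.7% to 36.8% in control and 41.8% to 57.3% in irradiated samples. WFDC2 made up 62.7% to 75.4% in control and 10.7% to 42.3% in irradiated samples. None of these 3 ranges overlapped between the groups, but the shares of a sample depend on each other, so these are not separate results. The levels of SLPI and of WFDC2 themselves did overlap between the groups. The irradiated sample with most WFDC2 and least PI3 was replicate 2. With canonical transcript lengths WFDC2 made up 79.8% to 87.8% in control and 22.0% to 63.3% in irradiated samples. These shares include the change of PI3 that led to its choice.

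**Figure D2:**
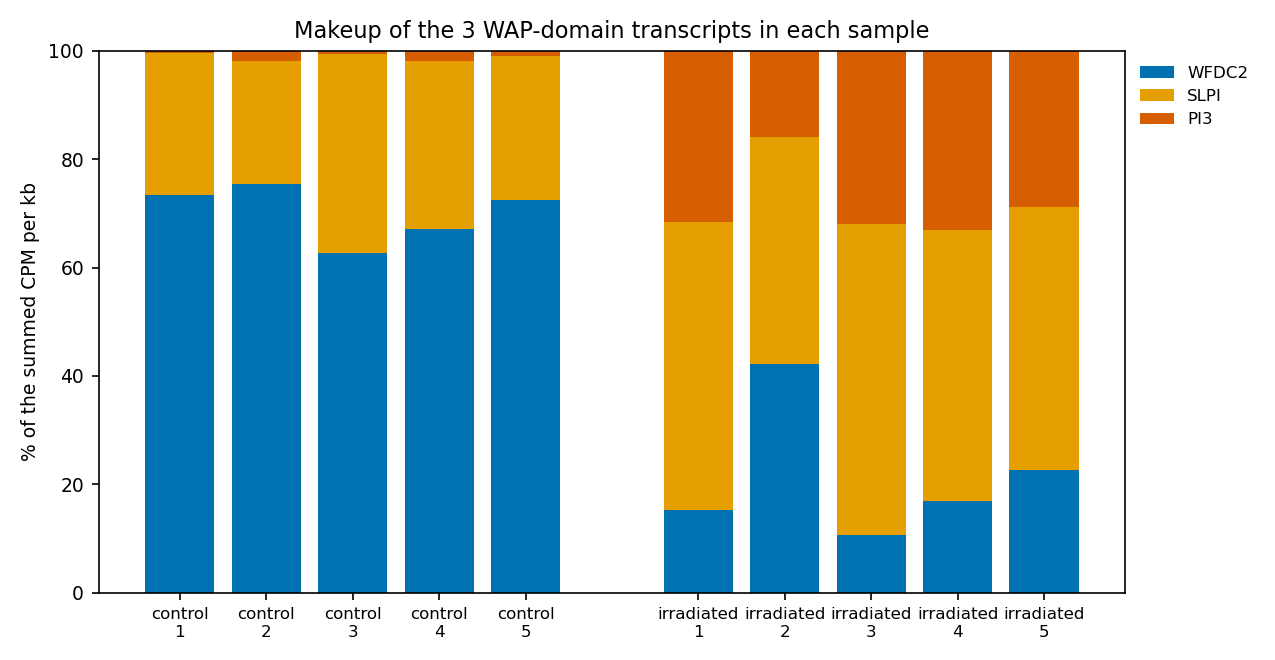
Share (%) of PI3, SLPI and WFDC2 in their summed level (CPM per kb of merged exons), 1 stacked bar for each of the 10 samples. WFDC2 took 62.7% or more of the sum in every control sample and 42.3% or less in every irradiated sample.

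PI3, SLPI and WFDC2 lie in the WAP cluster of 20q13, with 79.7 kb between the starts of PI3 and SLPI and 215.2 kb between those of SLPI and WFDC2. Of 36 other annotated genes with a start within 200 kb of one of the 3 genes, 10 were tested. In irradiated cells 4 were higher, 0 were lower and 6 were not called (edgeR, median log2 fold change 0.11, against -0.01 for all tested genes). Among all tested genes 23.9% were called higher and 22.7% lower. Of the 4, WFDC12, WFDC5 and KCNS1 needed their irradiated counts to be tested, so the count says little about the locus. The largest changes among the 10 genes were those of 2 small WAP genes on the far side of PI3 from SLPI. WFDC12 had a log2 fold change of 3.51 (SE 0.29, edgeR adjusted p = 8.58e-05), and its counts were 1, 2, 12, 6 and 1 in control and 42, 15, 88, 49 and 20 in irradiated replicates 1 to 5. WFDC5 had a log2 fold change of 2.78 (SE 0.28, edgeR adjusted p = 0.000215), with 2, 3, 14, 7 and 4 counts in control and 48, 9, 67, 49 and 13 counts in irradiated replicates. Both passed the limit of 200 counts mainly through the irradiated samples, so their direction was fixed by the filter. Their adjusted p-values are therefore no support for a rise. Both fell below the limit when replicate 1, 3 or 4 was left out, and WFDC5 also without replicate 5. In both the highest control sample was replicate 3. KCNS1, a modulatory potassium channel subunit that also needed its irradiated counts to pass the limit, was next with a log2 fold change of 1.22 (SE 0.30, edgeR adjusted p = 0.0129), a call that was lost without the replicate block (edgeR adjusted p = 0.206).

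Between SLPI and WFDC2 fitted changes were small, and SYS1, a Golgi membrane protein gene at 0.16 (SE 0.04, edgeR adjusted p = 0.0187), was the only gene called there. SDC4, encoding the proteoglycan syndecan 4, was at 551 CPM in control and 527 CPM in irradiated cells, with a log2 fold change of -0.05 (SE 0.08, edgeR adjusted p = 0.604). Fitted changes of the other genes there ran from -0.29 to 0.18. Along the cluster, the largest fitted rises were those of PI3, picked for its rise, and of WFDC12 and WFDC5, whose direction the count filter fixed. They are thus no support for a shared rise along the cluster. No tested neighbour of WFDC2 was called lower, but all its tested neighbours lay on its SLPI side. On its other side no gene within 200 kb was tested.

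**Figure D3:**
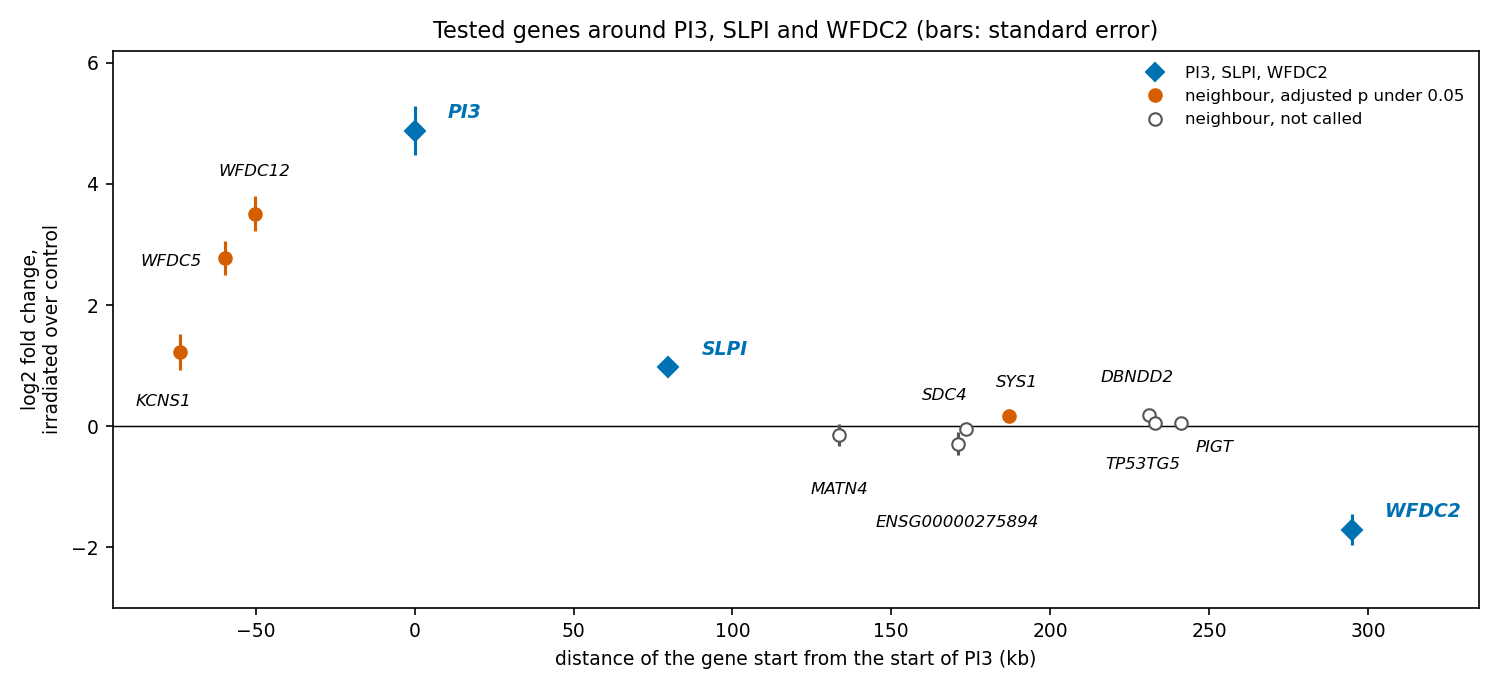
Log2 fold change (irradiated over control, edgeR, bars 1 standard error) of the tested genes around PI3, SLPI and WFDC2 against the distance of each gene's start from the start of PI3 in kb. WFDC12 at 3.51 and WFDC5 at 2.78 lie on the far side of PI3 from SLPI, and the genes between SLPI and WFDC2 lie near 0.

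SAA1 and SAA2, the acute phase serum amyloid A genes, both rose. SAA1 (ENSG00000173432.13; chromosome 11, 18266260 to 18269977, plus strand) held 1.22, 0.630, 3.23, 0.780 and 0.470 CPM in control replicates 1 to 5. It held 9.90, 4.57, 17.9, 11.7 and 8.47 CPM in irradiated replicates 1 to 5. Every irradiated sample was above every control sample, as was the case for 14.6% of all tested genes. The fitted log2 fold change of SAA1 was 3.24 with a standard error of 0.26, a 9.45-fold rise (edgeR adjusted p = 7.43e-05).

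SAA2 (ENSG00000134339.9; chromosome 11, 18239223 to 18248668, minus strand) lies 17.6 kb from SAA1. Control replicates 1 to 5 held 0.465, 0.193, 1.01, 0.186 and 0.118 CPM. Irradiated replicates 1 to 5 held 1.56, 0.836, 2.44, 1.83 and 1.31 CPM. The groups overlapped through control replicate 3 and irradiated replicate 2, and all 5 pairs were higher in the irradiated sample. The fitted log2 fold change of SAA2 was 2.23 with a standard error of 0.32, a 4.69-fold rise (edgeR adjusted p = 0.00112), and it ran from 1.81, without control replicate 5 and the pairing, to 2.93, without replicates 1 and 3.

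SAA1 had 2.63 to 4.20 times as many counts as SAA2 in control samples and 5.46 to 7.32 times as many in irradiated samples. SAA1 and SAA2 are near-identical copies, and 46.4% of the canonical SAA2 transcript lies under exons of the SAA2-SAA4 readthrough gene, so reads shared between these genes could not be assigned to one and the values of both are uncertain. Of 24 other genes around SAA1 and SAA2, 6 were tested, 2 were higher and 2 were lower, beside 23.9% and 22.7% of all tested genes. Their changes were small, with LDHA, the lactate dehydrogenase A subunit, at -0.28 (SE 0.07, edgeR adjusted p = 0.0179) and GTF2H1, a subunit of the transcription factor TFIIH, at 0.23 (SE 0.04, edgeR adjusted p = 0.0031). The call of LDHA was lost when replicate 4 or 5 was left out. The transcript ENSG00000256006 was called at -0.45 (edgeR adjusted p = 0.0499) and lost its call with DESeq2 and limma-voom. Its call was also lost with the filterByExpr filter and without replicate 2, 3, 4 or 5 (edgeR adjusted p = 0.0506 to 0.145).

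S100A8 and S100A9, the calprotectin subunits, were at or near the limit of detection. S100A8 (ENSG00000143546.10; chromosome 1, 153390032 to 153391073, minus strand) had 2 counts in control replicate 5, 2 counts in irradiated replicate 5 and 0 counts in the other 8 samples, where 3 counts, the most that a count of 0 allows, correspond to 0.0214 to 0.0448 CPM. No fold change is given for it. S100A9 (ENSG00000163220.11; chromosome 1, 153357854 to 153361023, plus strand) had 4, 14, 6, 9 and 10 counts in control replicates 1 to 5. It had 33, 15, 27, 13 and 12 counts in irradiated replicates 1 to 5. In CPM the control samples ran from 0.0489 to 0.100 and the irradiated samples from 0.136 to 0.333, without overlap. Of the genes in the main test, which did not include S100A9, 14.6% were apart in this direction.

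In the fit over all 44263 genes with at least 1 count, in which 21.5% were called, 10.2% as higher and 11.2% as lower (3.64% and 2.57% past 2-fold), S100A9 had a log2 fold change of 1.45 with a standard error of 0.32 (edgeR adjusted p = 0.00155). Without replicates 1 and 3, which had the largest rises, it was 0.84 and was no longer called (edgeR adjusted p = 0.162). Floors and counts of this size cover counting error only.

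The upstream windows of S100A9 and S100A8, which lie 33.2 kb apart, are shown because the genes encode partners of 1 complex but differed in detection. In each the TATA box, in capitals, starts 29 bases before the start site, and neither window held the other 3 motifs.
S100A9 upstream, plus strand, chr1:153357604-153357853: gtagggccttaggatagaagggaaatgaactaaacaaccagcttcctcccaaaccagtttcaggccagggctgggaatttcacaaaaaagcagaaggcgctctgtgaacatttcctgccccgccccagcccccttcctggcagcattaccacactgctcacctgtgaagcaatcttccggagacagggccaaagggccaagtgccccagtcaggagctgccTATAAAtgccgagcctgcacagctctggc
S100A8 upstream, minus strand, chr1:153391074-153391323: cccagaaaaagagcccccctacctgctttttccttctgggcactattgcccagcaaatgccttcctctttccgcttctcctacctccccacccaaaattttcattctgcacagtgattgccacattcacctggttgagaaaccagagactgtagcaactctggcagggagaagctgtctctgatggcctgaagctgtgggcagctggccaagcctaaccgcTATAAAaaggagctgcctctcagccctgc
A match of letters is a description of the sequence and not evidence of a bound factor.

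Around S100A8 and S100A9, 6 of 22 neighbours were tested, 3 were higher and 1 was lower. The called neighbours were S100A6, S100A4, S100A3 and S100A2, which are counted again in the family below. The S100 family as a whole holds calcium-binding proteins with many roles inside and outside cells. In irradiated cells 9 of 11 tested genes of 18 were higher and 1 was lower (edgeR, median log2 fold change 0.42). Among all tested genes 23.9% were called higher and 22.7% lower, with a median of -0.01. The largest rises were those of S100A3 at 0.86 (SE 0.10, edgeR adjusted p = 0.000431), S100A16 at 0.67 (SE 0.10) and S100A13 at 0.54 (SE 0.06), and 47.2% of the canonical transcript of S100A13 lies under another gene of the same strand. The most abundant, S100A6, went from 706 ± 102 to 943 ± 109 CPM with a log2 fold change of 0.42 (SE 0.06, edgeR adjusted p = 0.000813). S100A2, a p53-responsive gene of epithelia, fell from 30.1 ± 8.11 to 16.4 ± 3.25 CPM with a log2 fold change of -0.86 (SE 0.19, edgeR adjusted p = 0.00803).

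DEFB1 (ENSG00000164825.4; chromosome 8, 6870592 to 6877936, minus strand), which encodes beta-defensin 1, was scarce in both groups. It had 19, 13, 43, 5 and 12 counts in control replicates 1 to 5 and 18, 2, 8, 2 and 2 counts in irradiated replicates 1 to 5. In CPM the control samples ran from 0.0464 to 0.429 and the irradiated samples from 0.0218 to 0.182, so the groups overlapped, and DEFB1 was lower in the irradiated sample in all 5 pairs. In the fit over genes with at least 1 count its log2 fold change was -1.43 with a standard error of 0.37 (edgeR adjusted p = 0.00579). The call was lost without replicate 3 (log2 fold change -1.02, edgeR adjusted p = 0.119) and without the replicate block (-1.32, edgeR adjusted p = 0.16). Exons of an antisense gene lie over 12.5% of DEFB1, and whether counting used strand is not given in the sources used here. Of 22 neighbours, 3 were tested, 0 were higher and 1 was lower, beside 23.9% and 22.7% of all tested genes. MCPH1-AS1 was called at -0.36 (SE 0.12, edgeR adjusted p = 0.0344), a call that was lost with DESeq2 (adjusted p = 0.0577). It was also lost without replicate 1, 2, 3 or 4 and without replicates 1 and 3 together (edgeR adjusted p = 0.0681 to 0.147).

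Other genes of these pathways were taken from 9 lists, written with earlier results of these data known. Counts over the lists therefore describe the listed genes and are no test of the pathways. Of their 85 tested genes, 40 were higher and 21 were lower in irradiated cells (edgeR), beside 4550 and 4307 of all 19006 tested genes, and the median log2 fold change was 0.21. A gene in the WAP list outside 20q13, ANOS1, encodes the matrix protein anosmin 1 and went from 0.486 ± 0.0960 to 2.84 ± 0.621 CPM (log2 fold change 2.54, SE 0.12, edgeR adjusted p = 1.59e-05). The list held 19 genes, of which 5 were tested, 3 were called higher and 0 lower, but 2 of these 3, WFDC12 and WFDC5, passed the count minimum only through the irradiated samples, so their direction was fixed by the filter and the count says little about the list.

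Other epithelial antimicrobial genes were mostly scarce. Of 37 listed, 7 had at least 200 counts. Of these, 1 was higher and 4 were lower (edgeR, median log2 fold change -0.86), beside 23.9% and 22.7% of all tested genes. CXCL14, a chemokine with direct antimicrobial activity, had 1628, 911, 707, 1178 and 1375 CPM in control replicates 1 to 5 and 145, 151, 54.8, 71.8 and 108 CPM in irradiated replicates. The log2 fold change of CXCL14 was -3.50 (SE 0.20, edgeR adjusted p = 2.69e-05). CCL28, a mucosal chemokine with antimicrobial activity, went the other way with a log2 fold change of 2.12 (SE 0.23, edgeR adjusted p = 0.000281). Lactoferrin (LTF), which sequesters iron, was at 1.09, 0.179, 2.02, 0.148 and 0.126 CPM in control replicates, with a log2 fold change of -1.65 (SE 0.47, edgeR adjusted p = 0.0231). ADM, encoding adrenomedullin, had a log2 fold change of -1.08 (SE 0.32, edgeR adjusted p = 0.0278). LTF and ADM were lower in 4 of 5 pairs, and the calls of both were lost when replicate 1 was left out. The call of LTF was also lost without replicate 3 and without the block, and LTF passed the count minimum only through the control samples. ADM lost its call also without replicate 5 and without replicates 1 and 3 together, where its log2 fold change was -0.49. LCN2, the siderophore-binding NGAL, was at 0.431 ± 0.272 CPM in control and 0.625 ± 0.118 CPM in irradiated cells and did not pass (log2 fold change 0.66, SE 0.24, edgeR adjusted p = 0.0585).

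Among acute phase genes other than SAA1 and SAA2, 4 of 7 tested were called higher and 2 lower (edgeR, 21 listed, median log2 fold change 0.93). The shares of all tested genes were 23.9% and 22.7%. Of the 4, ORM2 was tested only because of its counts in irradiated samples. PTX3, a soluble pattern recognition molecule, had 0.196, 0.336, 0.179, 0.436 and 0.445 CPM in control replicates and 3.02, 2.27, 1.94, 3.94 and 3.77 CPM in irradiated replicates. Every irradiated sample of PTX3 was above every control sample, as was the case for 14.6% of all tested genes. The log2 fold change was 3.22 (SE 0.17, edgeR adjusted p = 1.94e-05), close in size to that of SAA1. Complement C3 rose from 36.0 ± 4.92 to 109 ± 14.6 CPM (log2 fold change 1.61, SE 0.08, edgeR adjusted p = 1.59e-05), and ORM2, encoding an orosomucoid, had 1, 25, 10, 7 and 16 counts in control and 30, 21, 52, 23 and 29 counts in irradiated replicates 1 to 5. LRG1, another secreted acute phase protein, fell with a log2 fold change of -1.24 (SE 0.17, edgeR adjusted p = 0.000932). CFB, the complement factor B gene, had a log2 fold change of -0.80 (SE 0.19, edgeR adjusted p = 0.0121), but 90.8% of its canonical transcript lies under other genes of the same strand.

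A list of serpins and other protease inhibitors included 5 genes that rose and 1 that fell among 9 tested of 18 (edgeR, median log2 fold change 0.41). Among all tested genes 23.9% were called higher and 22.7% lower. The largest rises were in members that are not known as inhibitors of neutrophil proteases, ITIH2 (log2 fold change 1.49, SE 0.25), a heavy chain attached to hyaluronan, SERPINB8 (1.28, SE 0.14), which inhibits furin, and SERPINI1 (1.17, SE 0.14), neuroserpin, which inhibits tissue plasminogen activator. AMBP, the precursor of alpha-1-microglobulin and the inhibitor bikunin, fell from 11.7 ± 3.48 to 2.40 ± 0.584 CPM (log2 fold change -2.27, SE 0.18, edgeR adjusted p = 7.73e-05). SERPINA1, encoding alpha-1-antitrypsin, the main plasma inhibitor of neutrophil elastase, which is in both this list and the acute phase list, rose from 126 ± 39.7 to 232 ± 25.6 CPM (log2 fold change 0.93, SE 0.12, edgeR adjusted p = 0.000625). Transcripts of neutrophil serine proteases, among them the elastase that PI3 and SLPI inhibit, were scarce. None of the 5 neutrophil serine protease genes was tested, and their summed level was 0.0084 to 0.0715 CPM in control and 0.0218 to 0.0896 CPM in irradiated samples, with ELANE at 2 counts and CTSG at 0 counts over the 10 samples.

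Transglutaminases, which can couple elafin to other proteins, and cornified envelope genes moved both ways. With 28 listed, 5 of 12 tested genes were higher and 3 lower (edgeR, median log2 fold change 0.48), beside 23.9% and 22.7% of all tested genes. TGM2, the tissue transglutaminase, had 34.7, 43.7, 68.3, 52.1 and 37.8 CPM in control replicates and 344, 196, 484, 294 and 264 CPM in irradiated replicates. The groups did not overlap, as for 14.6% of all tested genes with the irradiated group higher. The log2 fold change of TGM2 was 2.72 (SE 0.15, edgeR adjusted p = 2.5e-05). FLG, encoding filaggrin, and TGM5 followed at 2.06 (SE 0.19) and 1.77 (SE 0.29). The desmosomal plakins PPL and EVPL fell with log2 fold changes of -0.64 (SE 0.06) and -0.42 (SE 0.08), and KRT10 with -0.25 (SE 0.04). Squamous markers other than KRT10 were scarce, with KRT1 and LORICRIN at 0 counts and KRT5 at 83 counts over all samples, and the summed level of the 8 squamous markers, mostly KRT10, was 46.5 to 51.7 CPM in control and 39.8 to 43.0 CPM in irradiated samples.

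Receptors of calprotectin, serum amyloid A and beta-defensins included 4 genes that rose and 1 that fell among 9 tested of 14 (edgeR, median log2 fold change 0.09). Among all tested genes the shares were 23.9% higher and 22.7% lower. TLR4 had 3.06, 5.56, 2.79, 5.30 and 4.79 CPM in control replicates and 9.85, 11.1, 13.1, 15.1 and 13.9 CPM in irradiated replicates, with a log2 fold change of 1.59 (SE 0.16, edgeR adjusted p = 0.0002). TLR2, a receptor of bacterial lipopeptides that also responds to serum amyloid A, had a log2 fold change of 1.24 (SE 0.12), and the formyl peptide receptor FPR1 one of 1.14 (SE 0.22). AGER, the receptor for advanced glycation end products, was called at -0.30 (SE 0.10, edgeR adjusted p = 0.0382) and lost its call without the replicate block (edgeR adjusted p = 0.422). Its call was also lost without replicate 1, 3, 4 or 5 and without replicates 1 and 3 together (edgeR adjusted p = 0.069 to 0.115).

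Cytokine receptors and transcription factors known to act on these genes split evenly, with 10 of 26 tested genes higher and 9 lower (edgeR, 28 listed, median log2 fold change 0.11). The shares over all tested genes were 23.9% and 22.7%. The NF-κB subunit genes RELB and NFKB2 rose most. RELB went from 12.8 ± 3.49 to 55.8 ± 9.80 CPM (log2 fold change 2.15, SE 0.17, edgeR adjusted p = 7.43e-05), and NFKB2 from 49.95 ± 7.13 to 153 ± 19.5 CPM (log2 fold change 1.62, SE 0.10, edgeR adjusted p = 3.28e-05). KLF4 rose with a log2 fold change of 0.82 (SE 0.13). The C/EBP genes CEBPD and CEBPB fell. CEBPD had 97.7, 58.7, 118.9, 75.5 and 75.8 CPM in control and 49.98, 50.1, 44, 39.0 and 40.7 CPM in irradiated replicates (log2 fold change -0.90, SE 0.15, edgeR adjusted p = 0.00187). CEBPB had a log2 fold change of -0.80 (SE 0.13).

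**Figure D4:**
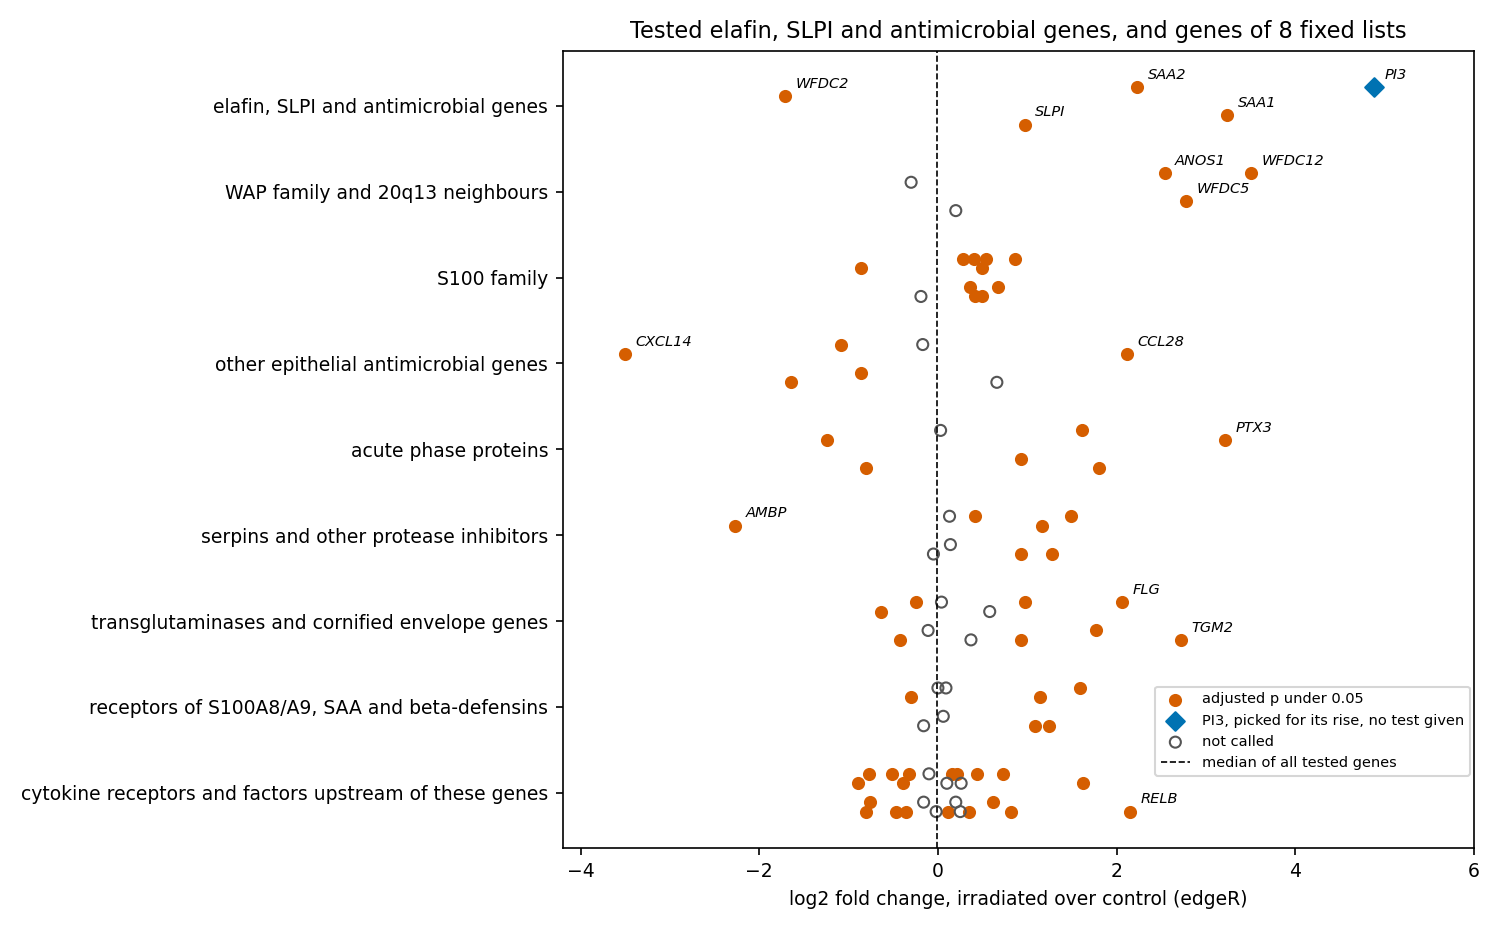
Log2 fold change (irradiated over control, edgeR) of the tested elafin, SLPI and antimicrobial genes (top row) and of the tested genes of 8 fixed lists, 1 point per gene, filled where the adjusted p was under 0.05, with the vertical position within a row spread for legibility only and the dashed line at the median of all tested genes, -0.01. CXCL14 at -3.50 lies farthest below and PI3 at 4.88 farthest above; the list of neutrophil serine proteases had no tested gene and is not drawn.

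Markers of other cell types moved with irradiation as well. The summed level of 13 leukocyte markers was 0.655 to 0.893 CPM in control and 1.93 to 2.61 CPM in irradiated samples, and 10 of the 13 had under 200 counts. ITGAM made up most of the difference, at 0.0436 ± 0.0241 CPM in control and 1.24 ± 0.370 CPM in irradiated cells, while PTPRC, the pan-leukocyte CD45, was at 0.295 ± 0.102 and 0.353 ± 0.121 CPM. The neutrophil markers CSF3R, FCGR3B, MPO and S100A12 had 15, 3, 6 and 3 counts over the 10 samples. The summed level of 10 fibroblast and endothelial markers was 17.7 to 24.9 CPM in control and 33.6 to 46.0 CPM in irradiated samples. The summed level of 10 markers of other nephron segments overlapped between the groups, at 857 to 1240 CPM in control and 782 to 1236 CPM in irradiated samples. Their part in the changes of PI3, SLPI, SAA1 and SAA2 was not tested.

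The 5 genes whose profile over the 10 samples was most like that of PI3 were found among 12842 genes by the smallest root mean square difference in log2 CPM from the control mean. They were TNFSF15 (0.30), the chemokine CXCL5 (0.49), SELP (0.50), LTB (0.53) and DCLK1 (0.63). TNFSF15 went from 0.613 ± 0.288 to 16.4 ± 5.81 CPM and CXCL5 from 14.7 ± 4.30 to 477 ± 203 CPM. Genes with a rise as large as that of PI3 are favoured by this measure. By the same measure the profile of SLPI was most like those of BAIAP2L2 (0.23), FADS3 (0.26), DUSP1 (0.27), PDZK1IP1 (0.29) and ERFE (0.30). DUSP1, a phosphatase of MAP kinases, was at 65.2 CPM in control replicate 3 and at 23.8 to 27.9 CPM in the other control samples. SLPI was also highest in replicate 3, which the choice of DUSP1 by its likeness to SLPI favours.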

How the data were processed

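Poly-A RNA of 10 RPTEC/TERT1 samples, 5 control and 5 irradiated, was sequenced. The deposited values are raw read counts per gene, which the authors made with Trim-Galore, STAR (gene counts) and GRCh38 with a GENCODE annotation whose release is not given in the sources used here. The labels and the published methods name different library kits, and whether counting used strand is not given. Reads shared by overlapping genes are lost in such counts.

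Counts were analysed as deposited with edgeR 4.0.16 in R 4.3.3 on genes whose counts summed to 200 or more (TMM, glmQLFit, glmQLFTest, Benjamini-Hochberg adjustment over all tested genes, threshold 0.05), with the replicate number as a block as in the study's methods. Genes under 200 counts are given from a fit over genes with at least 1 count. Samples with the same number deviated together, with correlations of 0.22 to 0.51 in all 5 pairs, although samples with different numbers reached 0.32 (control 5 with irradiated 4). Replicates 4 and 5 were the most alike in both groups. No pair of replicates of a group differed by as little as sampling noise. Of the 61587 identifiers, 61369 matched GENCODE 44, 92.86% with the same version, and positions and lengths are from it. Scripts were tested on simulated data. Total counts of 66269311 to 131555873 per sample limit statements on genes of few counts.

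The 8 genes and all lists were chosen with earlier results of these data known. Named beside them were, in each list, up to 3 genes higher and 3 lower with the largest log2 fold change; up to 3 called genes per locus within 200 kb; and the 5 genes most like PI3 and SLPI with a mean log2 CPM of at least 1 (prior count 2). LCN2, SDC4, SERPINA1, the cell type markers and a few others were named outside this rule after their values were seen. A gene that the rule would name is not reported here.

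Alternatives were upper-quartile scaling, library size only, DESeq2 1.42.0, limma-voom (limma 3.58.1), the filterByExpr filter, a fit without the replicate block, each replicate or single sample left out, replicates 1 and 3 left out together, and other transcript lengths, of which the canonical length was chosen after seeing the data.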

Additional observations from a re-analysis of the deposited data

Results flagged for a closer look

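In 118 groups of 5 samples, 9 had 1 sample whose distance to the nearest other sample was large against the group's range (Dixon's test, critical value 0.71), where about 1 in 20, or 5.9, would be expected by chance. The groups were not independent, since all genes share the same samples. Some genes, among them DUSP1, were picked for a profile like that of PI3 or SLPI. SLPI was high in replicate 3 of both groups, at 45.15 CPM in control (others 15.43 to 19.64) and 68.85 CPM in irradiated cells (others 29.52 to 38.7). SAA1 was also high in control replicate 3, at 3.23 CPM (others 0.4704 to 1.223). Control replicate 3 was further high for TLR2 at 6.161 CPM (others 4.244 to 4.475), KCNS1 at 0.5882 CPM (others 0.0504 to 0.1712) and DUSP1 at 65.25 CPM (others 23.77 to 27.92). Irradiated replicate 3 was high for ORM2, at 0.5615 CPM (others 0.2504 to 0.3279). WFDC2 was high in irradiated replicate 2, at 87.59 CPM (others 25.07 to 31.05), the sample in which PI3 had its lowest irradiated level. ENSG00000256006 was low in control replicate 1, at 0.9663 CPM (others 1.196 to 1.253). The source of these departures was not tested.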

How the results depend on the processing

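PI3, SLPI, WFDC2, SAA1, SAA2, S100A9 and DEFB1 kept their direction under all alternatives run, and WFDC2, SAA1 and SAA2 stayed past the threshold in all of them. The log2 fold change of PI3 ran from 4.20 to 5.37. With single samples left out, for which the replicate block had to be dropped, SLPI ran from 0.66 to 1.32 (edgeR adjusted p up to 0.116) and lost its call in 8 of 10 cases, all but those without control replicate 3 or irradiated replicate 5; without irradiated replicate 3 it was 0.66 and without control replicate 3 it was 1.32. With the block and a whole pair left out, SLPI stayed between 0.91 and 1.07 and past the threshold. DEFB1 lost its call without the replicate block (log2 fold change -1.32, edgeR adjusted p = 0.16), without replicate 3 (-1.02, edgeR adjusted p = 0.119), without replicates 1 and 3 together (-1.67, edgeR adjusted p = 0.101) and in 9 of 10 cases with a single sample left out, all but that without irradiated replicate 1, over a range of -2.09 to -0.68 (edgeR adjusted p up to 0.47). S100A9 lost its call without replicates 1 and 3 (0.84, edgeR adjusted p = 0.162) and ran from 0.84 to 1.64 over all alternatives. The cause of these losses was not tested. The paired replicate block changed no other call among the 8 genes; without it 7006 of the tested genes were called, against 8857. The number of genes over 2-fold higher was 1613 in the fit over genes with at least 1 count, which tests more genes, against 999. Counts over the lists ran from 34 to 44 higher and 18 to 24 lower. The WAP list fell from 3 to 1 higher without replicate 1, 3 or 4, where WFDC12 and WFDC5 came under the count minimum. Without replicate 5, WFDC5 alone of the pair came under it. Levels per kb of WFDC2, SAA1 and SAA2 moved with the transcript length used. Of 657 alternative values for the 52 other genes named by rule, 628 kept direction and side of the threshold, 29 in 8 genes (LTF, ADM, AGER, KCNS1, MCPH1-AS1, ENSG00000256006, LDHA and DUSP1) lost the call, and 0 reversed. Fits in which a named gene, such as WFDC12, WFDC5 or ORM2, fell under the count minimum gave no value and are not among the 657. Scaling moved the median log2 fold change of all tested genes by under 0.1, to -0.09 at most.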

Other observations

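Among the genes of the lists that had at least 1 but under 200 counts and so were outside the main test, 79 in number, the fit over genes with at least 1 count called 6 higher and 0 lower (edgeR), where it called 10.2% of all its genes higher and 11.2% lower. They are named here after their values were seen. WFDC1, another WAP protein, had 92 counts and a log2 fold change of 2.28 (SE 0.48, edgeR adjusted p = 0.000913). RNASE7, an antimicrobial ribonuclease of the urinary tract, had 0, 0, 1, 0 and 1 counts in control and 8, 1, 9, 3 and 4 counts in irradiated replicates 1 to 5, with a log2 fold change of 3.38 (SE 0.92, edgeR adjusted p = 0.00853). DMBT1, a secreted scavenger receptor protein, had 0, 7, 1, 11 and 3 counts in control and 18, 10, 58, 52 and 36 counts in irradiated replicates (log2 fold change 3.21, SE 0.39, edgeR adjusted p = 7.68e-07). CCL20, a chemokine with antimicrobial activity, had 0, 5, 1, 0 and 0 counts in control and 9, 3, 18, 11 and 5 counts in irradiated replicates (log2 fold change 3.10, SE 0.70, edgeR adjusted p = 0.00184). EMB and LY96, the TLR4 co-receptor MD-2, had log2 fold changes of 3.07 (SE 0.36) and 1.45 (SE 0.35). At these counts the fitted sizes depend on the prior count and are not bounds.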
